A study of Homo sapiens with 52 samples.

Results

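Collagen genes encode the alpha chains of the collagens, the proteins that build most of the extracellular matrix. In the deposited gene tables of 78894 genes, 44 protein-coding genes carried a collagen alpha chain name (COL, a number, A and a number). Of these, 28 had a mean level of at least 1 TPM in a non-targeting group of any cell line and are described here. TPM, the share of transcripts scaled to a fixed sum per sample, is a level corrected for transcript length, so that levels of different genes can be set side by side. The 28 comprised 8 fibrillar collagens, 6 network collagens, 5 FACIT (fibril-associated) collagens, 3 beaded filament (type VI) chains, 3 transmembrane collagens, 2 multiplexins and 1 anchoring fibril collagen. Just inside the limit were COL11A2 (1.18 TPM in its highest non-targeting group) and COL9A3 (1.28 TPM), and just outside it was COL19A1 (0.50 TPM).

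The measurements were bulk poly(A) RNA sequencing of 52 samples in 18 groups from 3 established claudin-low breast cancer cell lines, SUM159PT (17 samples), MDA-MB-231 (18) and HS578T (17). NRP1, the gene for the co-receptor neuropilin-1, was knocked down in each line by siRNA or by shRNA. The siRNA groups received 20 nM of a non-targeting control (siNT), of siNRP1#3, which is directed at transmembrane NRP1 alone, or of siNRP1#5, which is directed at total NRP1, and RNA was taken 72 hrs after transfection. The shRNA groups (shNT, shNRP1#3 and shNRP1#5) were transduced with lentivirus, selected in puromycin and harvested 48 hrs after seeding. No other genetic change was made to any group, and siNRP1#5 and shNRP1#5 carry the same targeting sequence, while siNRP1#3 and shNRP1#3 do not. There were 3 samples in 16 groups and 2 in the others, which were HS578T shNRP1#3 and SUM159PT siNRP1#5. The replicates of an shRNA group were consecutive passages of a single transduced population, so no spread between separate transductions enters their p-values. The spread used by the test was estimated over all 6 groups of a line, from shRNA passages and siRNA replicates together. All samples of a cell line are 1 established line and not separate tumours.

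Each collagen molecule is a triple helix of 3 alpha chains, which may be products of the same gene or of different genes. The fibrillar collagens (types I, III and V among those measured) form the fibrils of connective tissue, type IV chains form the sheet of basement membranes, and type VI chains form beaded filaments at the cell surface. Type VII anchors epithelium to stroma, and the multiplexins XV and XVIII sit at basement membranes. Fibrillar collagens are mainly made by fibroblasts, and carcinoma cells with mesenchymal features, such as claudin-low cells, can also make them.

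The type IV genes are arranged in head-to-head pairs that share the DNA between their start sites, which is why their promoters are shown. RefSeq (GRCh38.p14) holds 300-base promoter windows, from 250 bases before to 50 after a start, for 32 of the 44 genes and for 20 of the 28 described here. COL4A1 and COL4A2 lie on chromosome 13 with 126 bases between their RefSeq starts. COL4A5 and COL4A6 lie on chromosome X with 379 bases between theirs. The COL5A1 promoter on chromosome 9 is shown because no other collagen gene was lower in more knockdown comparisons. Capitals mark GC boxes (GGGCGG or CCGCCC) and CCAAT boxes (CCAAT or ATTGG) found on either strand, and all 3 runs are on the plus strand and overlap no annotated exon.
COL4A1 and COL4A2, chr13:110307158-110307257, 100 of the bases between the starts: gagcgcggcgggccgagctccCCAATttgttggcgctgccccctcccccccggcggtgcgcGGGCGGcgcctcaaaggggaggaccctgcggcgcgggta
COL4A5 and COL4A6, chrX:108439588-108439708, the 121 bases held by the windows of both genes: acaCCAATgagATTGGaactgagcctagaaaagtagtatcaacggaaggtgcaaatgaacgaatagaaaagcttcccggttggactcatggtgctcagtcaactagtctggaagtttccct
COL5A1, chr9:134641553-134641802, the 250 bases before the start: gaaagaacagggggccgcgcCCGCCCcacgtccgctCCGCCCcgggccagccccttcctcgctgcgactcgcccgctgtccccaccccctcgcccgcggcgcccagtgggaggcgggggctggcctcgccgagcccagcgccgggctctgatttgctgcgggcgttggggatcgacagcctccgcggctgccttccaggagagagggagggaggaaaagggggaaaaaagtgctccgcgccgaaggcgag
The COL4A1 and COL4A2 run holds 1 GC box and 1 CCAAT box and is 78% G or C. The COL4A5 and COL4A6 run holds 2 CCAAT boxes and no GC box and is 44.6% G or C. A GC box was present in 19 of the 26 windows of the collagen genes described here and in 45% of the 35116 windows of all genes. For the CCAAT box the counts were 8 of 26 windows and 34.6% of all windows, and for the TATA box (TATAAA or TTTATA) 5 of 26 and 11.5%. These motif counts are a description of the letters and carry no test.

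Measured in CPM (counts scaled to a fixed library size), NRP1 was lower in every knockdown sample than in every control sample of the same line and method, and edgeR called it lower in 11 of the 12 comparisons. Its group means were 2.45 to 93.9 CPM in the knockdown groups and 73.8 to 234 CPM in the non-targeting groups, and the comparison not called was HS578T shNRP1#3. In TPM the MDA-MB-231 siNRP1#3 mean was close to that of siNT (28.5 against 28.8 TPM, where the CPM means were 44.7 and 73.8), while the other 11 knockdown groups had lower mean TPM than their controls. Vimentin (VIM), a mesenchymal marker, was at 2431 to 5516 TPM in the non-targeting groups. Of the genes that claudin-low cells lack, CLDN4 (165 TPM) and CLDN7 (51.1 TPM) were present in MDA-MB-231 siNT, against the label, while the 4 such genes were at group means of at most 1.53 TPM in the non-targeting groups of SUM159PT and HS578T. The 6 fibroblast markers added up to 715 to 1752 TPM in HS578T samples, all 6 at 1 TPM or more, to 16.1 to 71.7 TPM in SUM159PT and to 3.46 to 44.6 TPM in MDA-MB-231. Of the endothelial markers, CDH5 and VWF had means of at most 0.64 TPM in the non-targeting groups, while PECAM1 was at 13.1 TPM in SUM159PT siNT and 7.08 TPM in shNT. Of the leukocyte markers, CD3E was at or below 0.02 TPM, PTPRC was at 2.91 and 2.97 TPM in SUM159PT siNT and shNT, and CD68, which is not limited to leukocytes, reached 337 TPM in HS578T siNT and 119 TPM in MDA-MB-231 siNT. Marker genes of the other lines showed that HS578T siNRP1#5 samples carried 13.3 to 24.8% of RNA like that of MDA-MB-231 (12.0 to 22.6% with a stricter choice of marker genes) and 1.65 to 8.72% like that of SUM159PT, the highest in replicate 2 (6.74% with the stricter choice). In HS578T the wider choice held 59 marker genes of MDA-MB-231 and 70 of SUM159PT. The stricter choice held 3 and 11, so its MDA-MB-231 share rests on few genes. The share like that of MDA-MB-231 was lower in HS578T siNRP1#3 samples (2.57 to 7.42%) and HS578T siNT samples (0.691 to 2.19%). MDA-MB-231 shNRP1#3 replicate 3 carried 2.43% of RNA like that of SUM159PT and 2.05% like that of HS578T. In MDA-MB-231 siNRP1#3 the HS578T share was 0.125 to 0.150%, which would bring 3.09 TPM of COL1A2 in replicate 1 and 2.93 TPM in replicate 3, where 3.17 and 2.97 TPM were measured. In SUM159PT siNT the HS578T share of 0.134 to 0.170% would bring 3.14 to 3.99 TPM of COL1A2, and 0.22 to 0.35 TPM was measured, so that there the share overstates the foreign COL1A2.

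The 3 cell lines had different collagen repertoires in their non-targeting groups. In siNT, HS578T was led by type I collagen, SUM159PT by type VI collagen, and MDA-MB-231 by the transmembrane collagen COL13A1 and the basement membrane collagen COL4A2. In shNT the type VI chains led in HS578T too, with 49.3% of the summed collagen level, although COL1A2 was still the highest single gene. Summed over all 44 genes, collagen made up 7641 ± 1089 TPM in HS578T siNT, 1656 ± 386 TPM in SUM159PT siNT and 456 ± 54.1 TPM in MDA-MB-231 siNT (SD, n = 3 each). The 5 highest genes held 91.4% of that sum in HS578T siNT, 75.1% in SUM159PT siNT and 63.9% in MDA-MB-231 siNT.

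Among the fibrillar collagens, COL1A2, which encodes the alpha 2 chain of type I collagen, measured 2599, 2009 and 2413 TPM in the 3 HS578T siNT samples. In SUM159PT siNT it measured 0.22, 0.35 and 0.26 TPM, and in MDA-MB-231 siNT 0.18, 2.89 and 11.8 TPM. No sample of the other lines came near the HS578T range, and the highest MDA-MB-231 siNT sample, replicate 3, carried 0.464% of RNA like that of HS578T, which would bring 10.9 TPM. COL1A1, the alpha 1 chain of the same molecule, was at 87.4, 39.9 and 93.8 TPM in SUM159PT siNT, where COL1A2 was nearly absent, so the SUM159PT cells had the RNA of 1 of the 2 type I chains. In HS578T siNT the COL1A1 levels were 1917, 1353 and 1802 TPM. COL3A1, the single chain of type III collagen, was at 184, 139 and 179 TPM in HS578T siNT, at 6.72, 13.9 and 4.96 TPM in SUM159PT siNT and at or below 0.91 TPM in MDA-MB-231 siNT. COL5A1, the chain common to type V collagen molecules, was found in every line, at 73.2 to 118 TPM in HS578T siNT, 85.6 to 118 TPM in SUM159PT siNT and 43.1 to 49.3 TPM in MDA-MB-231 siNT.

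The type VI chains were high in both HS578T and SUM159PT. COL6A3, the large chain that completes the type VI molecule, measured 797, 624 and 730 TPM in HS578T siNT and 343, 334 and 330 TPM in SUM159PT siNT. It measured 0.69, 1.15 and 4.95 TPM in MDA-MB-231 siNT, where COL6A1 was at 24.7, 27.7 and 30.8 TPM. MDA-MB-231 thus had far less RNA of COL6A3 than of its partner chain, which was not so in the other lines. Of the network collagens, COL4A5 and COL4A6, the chains of specialised basement membranes, were at 18.7 to 23.1 TPM and 8.86 to 16.1 TPM in SUM159PT siNT. Both were low in the other lines, with COL4A5 at or below 2.21 TPM and COL4A6 at or below 0.54 TPM in every siNT sample. COL4A2 measured 82.4, 92.3 and 98.4 TPM in MDA-MB-231 siNT, 102, 82.5 and 125 TPM in HS578T siNT and 16.0, 26.3 and 12.7 TPM in SUM159PT siNT. COL13A1, a transmembrane collagen of cell adhesion sites, was at 83.1, 89.3 and 107 TPM in MDA-MB-231 siNT, at 11.1 to 18.3 TPM in HS578T siNT and at 1.89 to 2.15 TPM in SUM159PT siNT. COL23A1, another transmembrane collagen, was found in HS578T siNT at 31.6, 19.4 and 18.3 TPM and did not pass 0.12 TPM in an siNT sample of the other lines.

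The other collagen genes are given by the mean of their highest non-targeting group. Of the fibrillar collagens these were COL5A2 (33.8 TPM, SUM159PT siNT), COL5A3 (20.3 TPM, HS578T siNT), COL27A1 (5.89 TPM, MDA-MB-231 siNT) and COL11A2 (1.18 TPM, SUM159PT siNT). Of the network collagens they were COL8A1 (83.5 TPM, SUM159PT siNT), COL4A1 (56.8 TPM, HS578T siNT) and COL8A2 (1.49 TPM, HS578T siNT). The FACIT collagens, which sit on the surface of fibrils or link them to other matrix, were COL16A1 (67.7 TPM, SUM159PT siNT), COL12A1 (51.1 TPM, MDA-MB-231 shNT), COL9A2 (12.0 TPM, MDA-MB-231 siNT), COL14A1 (8.11 TPM, SUM159PT siNT) and COL9A3 (1.28 TPM, MDA-MB-231 shNT). The type VI partner chains were COL6A1 (1176 TPM, HS578T siNT) and COL6A2 (1060.4 TPM, HS578T siNT), the multiplexins COL18A1 (46.3 TPM, SUM159PT siNT) and COL15A1 (9.09 TPM, HS578T siNT), the anchoring fibril collagen COL7A1 (79.4 TPM, SUM159PT siNT) and the hemidesmosome collagen COL17A1 (8.36 TPM, SUM159PT shNT). The 3 type VI chains were each highest in HS578T siNT, whereas the fibrillar, network, FACIT and multiplexin genes were not all highest in the same line.

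**Figure D1:**
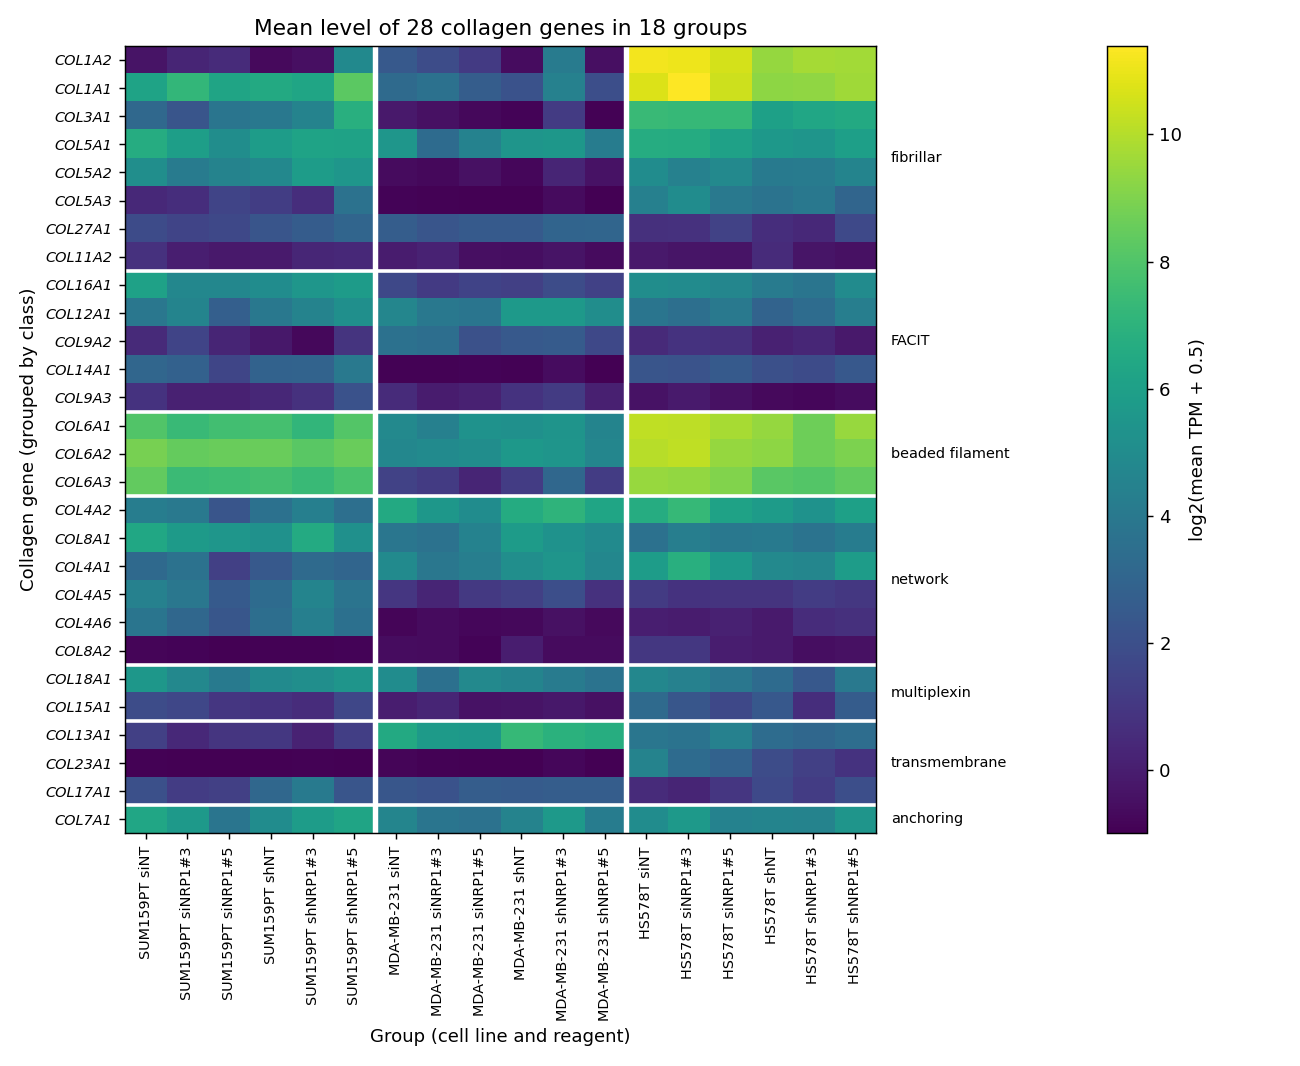
Mean level of the 28 collagen genes (rows, grouped by class) in the 18 groups (columns), as the log2 of the mean TPM + 0.5 of 2 or 3 samples. The HS578T columns are brightest at COL1A1, COL1A2 and the type VI chains, the SUM159PT siNT and shNT columns at the type VI chains, and the MDA-MB-231 siNT and shNT columns at COL13A1 and COL4A2.

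Tested over the non-targeting samples of 2 lines at a time, with the siNT and shNT means given equal weight, most collagen genes differed between the lines, as did most genes. In SUM159PT against MDA-MB-231, 25 of the 28 collagen genes passed the edgeR test at an adjusted p below 0.05 (18 higher and 7 lower in SUM159PT), where 61.7% of all tested genes passed (33.4% higher and 28.3% lower). The differences farthest from 0 were those of COL14A1 (log2 difference 9.50, SE 0.45), COL5A2 (8.50, SE 0.25), COL5A3 (8.21, SE 0.61), COL4A6 (8.10, SE 0.35) and COL6A3 (7.53, SE 0.39). In HS578T against MDA-MB-231, 24 of 28 passed (18 higher and 6 lower in HS578T), beside 73.2% of all genes (36.4% higher and 36.8% lower). These were led by COL5A3 (12.25, SE 0.61), COL1A2 (10.94, SE 0.77), COL3A1 (10.64, SE 0.87), COL23A1 (10.42, SE 0.53) and COL14A1 (8.97, SE 0.45). In HS578T against SUM159PT, 21 of 28 passed (13 higher and 8 lower in HS578T), beside 66.4% of all genes (31% higher and 35.5% lower), led by COL1A2 (13.34, SE 0.85), COL23A1 (10.86, SE 0.56), COL8A2 (4.62, SE 0.37), COL4A6 (-4.56, SE 0.28) and COL1A1 (4.12, SE 0.27). Where a line is close to 0, as MDA-MB-231 is for COL5A3 (at or below 0.09 TPM) and SUM159PT for COL23A1 (at or below 0.08 TPM), the size of the fitted difference depends on the small count that edgeR adds. The 28 genes were kept by their level in these same samples, so a gene high in 1 line alone was likely to differ. Their counts are therefore not like for like with the shares of all genes. Counted over all collagen genes tested, 29, 29 and 26 of 33 passed. With the added demand of at least a 2-fold difference, 27, 29 and 24 of these 33 were called, beside 38.1%, 51% and 41.7% of all genes. The 3 comparisons share samples, and the same samples appear in 2 comparisons each.

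The non-targeting groups themselves differed by delivery method, and siRNA transfection, lentiviral selection and harvest time differ together between siNT and shNT and cannot be told apart. In HS578T the summed collagen level was 3267 ± 174 TPM in shNT, 0.428 times that of siNT, and the 3 shNT samples were below every siNT sample. COL1A2 measured 825, 579 and 694 TPM in HS578T shNT, all below the lowest siNT sample (2009 TPM), with a log2 fold change of -1.74 (SE 0.33, edgeR adjusted p = 0.0029). COL1A1 measured 657, 573 and 649 TPM in shNT, which fell by 1.52 on the log2 scale (SE 0.32, adjusted p = 0.0051). COL23A1 (4.05, 2.54 and 2.91 TPM in shNT) fell by 2.78, COL8A2 by 1.78, COL18A1 by 1.46, COL5A2 by 1.03, COL4A1 by 1.00 and COL6A3 by 0.99. Only COL17A1, the collagen of hemidesmosomes, rose (1.66, SE 0.45). That gives 9 of 28 called in HS578T, where 17.9% of all genes were called (9.14% higher and 8.8% lower). The COL4A1 call was lost when any 1 of the 6 libraries was left out. The summed fibroblast markers were lower in HS578T shNT as well (1012 to 1181 TPM against 1540 to 1752 TPM), and their part in the result was not tested.

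In SUM159PT 9 of 27 collagen genes differed between shNT and siNT (1 higher, 8 lower), beside 14.4% of all genes (5.96% higher and 8.45% lower). The count was 4 without shNT replicate 1, 5 without shNT replicate 2, 3 without shNT replicate 3, and 4 without siNT replicate 1 or siNT replicate 2, and limma called 5. COL8A1, a short-chain network collagen, measured 43.1, 48.0 and 22.6 TPM in shNT against 104, 76.2 and 70.8 TPM in siNT (log2 fold change -1.53, SE 0.31, adjusted p = 0.0074). COL16A1, COL4A5 and COL5A1 fell by 1.44, 1.21 and 1.05. In MDA-MB-231 9 of 25 differed (5 higher, 4 lower), beside 20.6% of all genes (10.7% higher and 9.85% lower). The count was 4 without shNT replicate 2, shNT replicate 3 or siNT replicate 2, and 5 without siNT replicate 1. In this line COL8A1 rose. It measured 60.9, 57.4 and 49.4 TPM in MDA-MB-231 shNT against 15.2, 12.1 and 15.5 TPM in siNT (1.82, SE 0.20, adjusted p = 8e-06). COL12A1, a FACIT collagen, rose by 1.22 (SE 0.16), and COL9A2, a cartilage FACIT collagen, fell by 1.41 (SE 0.19). The difference between lines in these changes was not tested. The 28 genes were kept by their level in these same non-targeting samples. Over all collagen genes tested, 10 of 31 differed between shNT and siNT in SUM159PT, 11 of 29 in MDA-MB-231 and 10 of 35 in HS578T. Since siNT and shNT differ this much, every knockdown group is compared with the control of its own method.

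**Figure D2:**
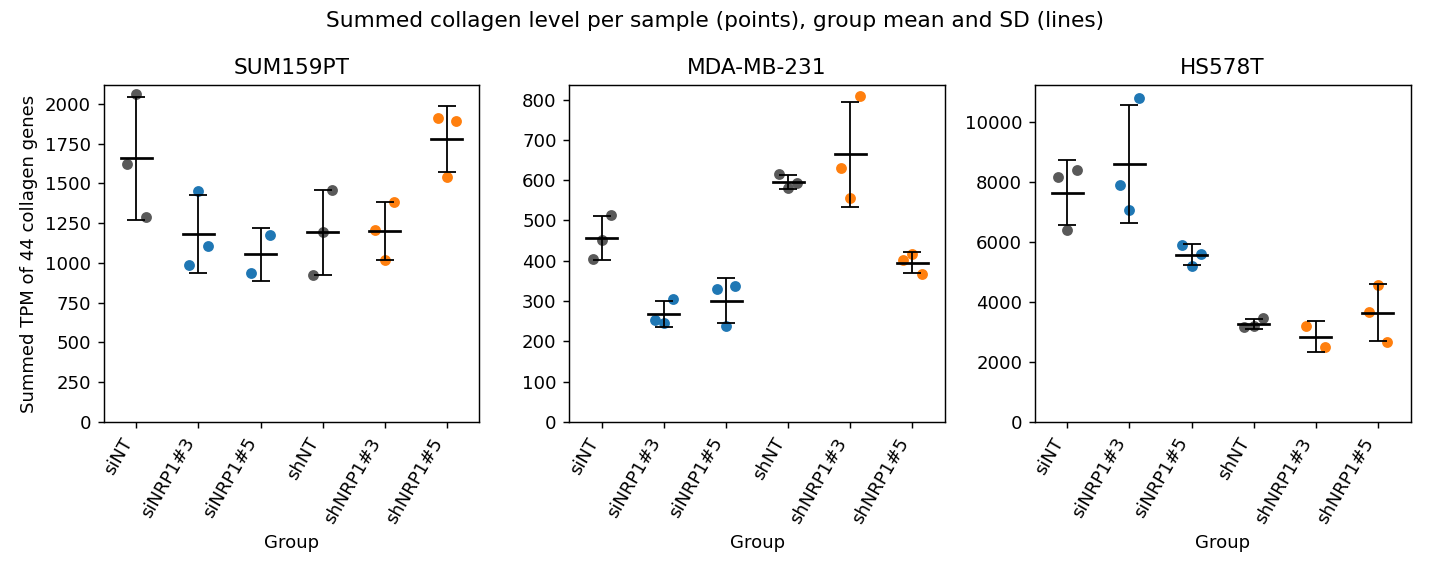
Summed TPM of the 44 collagen genes in each sample (points) of the 6 groups of each cell line, with the group mean (horizontal line) and SD (error bar; groups have 2 or 3 samples). HS578T shNT lies at 3267 TPM against 7641 TPM in siNT, SUM159PT shNRP1#5 lies above shNT, and MDA-MB-231 siNRP1#3, siNRP1#5 and shNRP1#5 lie below their controls.

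Against these controls the summed collagen level moved differently in the 3 lines. In MDA-MB-231 it was 0.588 times the control with siNRP1#3, 0.66 times with siNRP1#5 and 0.663 times with shNRP1#5, and in none of these did a knockdown sample reach the control range. With shNRP1#3 it was 1.11 times the control, with overlapping samples. In SUM159PT the ratio was 0.713 with siNRP1#3 (overlapping), 0.636 with siNRP1#5 (not overlapping, 2 samples), 1.01 with shNRP1#3 (overlapping) and 1.49 with shNRP1#5 (not overlapping). In HS578T it was 1.12 with siNRP1#3, 0.871 with shNRP1#3 and 1.11 with shNRP1#5, all overlapping, and 0.728 with siNRP1#5, where the samples did not overlap and 13.3 to 24.8% of the RNA was like that of MDA-MB-231. These ratios are in TPM. In CPM the ratio was 0.974 for HS578T shNRP1#5 and 0.927 for SUM159PT shNRP1#3, below 1 where TPM put it above. For the other knockdown groups both measures lay on the same side of 1. In bulk samples fewer cells of a type and less RNA per cell cannot be told apart, and a sum over genes was not tested.

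In SUM159PT, the basement membrane collagens COL4A5, COL4A6 and COL18A1 and the FACIT collagen COL16A1 were lower with both NRP1 siRNAs. With siNRP1#3, 6 of 27 collagen genes fell and 0 rose, beside 8.66% of all genes called (3.16% higher and 5.5% lower). With the replicate number as a block, since replicates of equal number deviated together here, 10 of 27 were called. COL16A1 measured 21.7, 30.7 and 25.2 TPM with siNRP1#3 against 60.3, 96.9 and 46.0 TPM in siNT. All 3 knockdown samples were below all controls (log2 fold change -1.61, SE 0.30, adjusted p = 0.0035). COL5A2, a type V chain, measured 17.2, 16.0 and 18.8 TPM against 41.2, 28.9 and 31.3 TPM, again without overlap (-1.10, SE 0.24, adjusted p = 0.009). COL18A1, the source of endostatin, fell by 0.89 (SE 0.25) and COL6A3 by 0.86 (SE 0.25). COL4A6 fell by 0.85 and COL4A5 by 0.81. The calls of COL6A3 and COL4A6 each remained in 1 of 6 fits that left out 1 library, those of COL4A5 in 2 and of COL18A1 in 3, whereas COL16A1 and COL5A2 remained in all 6. Leaving out siNRP1#3 replicate 1 or replicate 3 left 2 collagen genes called.

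With siNRP1#5, 10 of 27 collagen genes passed in SUM159PT (2 higher, 8 lower), beside 17.9% of all genes (9% higher and 8.89% lower). The type IV chains fell together. COL4A5 measured 3.66 and 6.66 TPM against 22.8, 23.1 and 18.7 TPM in siNT (-1.95, SE 0.25, adjusted p = 0.00029), and its head-to-head partner COL4A6 measured 2.39 and 6.53 TPM against 16.1, 8.86 and 15.7 TPM (-1.37, SE 0.26, adjusted p = 0.0032). COL4A2 measured 4.34 and 4.45 TPM against 16.0, 26.3 and 12.7 TPM (-1.63, SE 0.49, adjusted p = 0.030), and its partner COL4A1 measured 1.93 and 2.10 TPM against 8.68, 11.7 and 6.77 TPM (-1.51, SE 0.42, adjusted p = 0.023). For each of the 4 genes both knockdown samples were below every control. COL7A1, which forms the anchoring fibrils of epithelium, measured 16.7 and 10.8 TPM against 53.3, 143 and 42.0 TPM (-2.39, SE 0.56, adjusted p = 0.0099). COL5A1 fell by 1.44 (SE 0.32), COL16A1 by 1.34 (SE 0.34) and COL18A1 by 1.17 (SE 0.29). COL5A3, a minor type V chain, rose by 1.74 (SE 0.35, adjusted p = 0.0041), from 1.00, 0.77 and 0.77 TPM to 1.64 and 3.26 TPM. COL1A2 was called higher too (1.86, SE 0.60, adjusted p = 0.041), but its 2 samples measured 0.20 and 1.64 TPM, the lower of them below every control, and the call was lost without siNRP1#5 replicate 3, siNT replicate 1 or siNT replicate 3. The calls of COL4A2 and COL4A1 remained in 1 and 2 of 5 fits that left out 1 library, and 6 collagen genes were called without siNRP1#5 replicate 2. When siNRP1#5 and siNT were fitted without the other SUM159PT groups, 0 of the 27 passed in edgeR, where DESeq2 and limma over all groups called 11 and 12.

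The shRNAs gave another pattern in SUM159PT. With shNRP1#3, edgeR called 0 of 27 collagen genes, beside 1.4% of all genes (0.339% higher and 1.06% lower). At an unadjusted p below 0.05 there were 7, while DESeq2 called 7 and limma 1, and edgeR with the replicate number as a block called 3. Without shNRP1#3 replicate 3, shNT replicate 1 or shNT replicate 3 edgeR called 1. The nearest to the threshold were COL4A5 (log2 fold change 0.87, adjusted p = 0.052), COL5A2 (0.94, adjusted p = 0.059) and COL8A1 (1.22, adjusted p = 0.061), whose values lie above 0, while COL4A5 and COL5A2 fell with siNRP1#3. With shNRP1#5, 4 of 27 passed (3 higher, 1 lower), beside 5.94% of all genes (3.24% higher and 2.7% lower), and all 3 that rose were fibrillar collagens. COL1A2 measured 41.3, 25.7 and 18.6 TPM with shNRP1#5 against 0.18, 0.03 and 0.13 TPM in shNT, or 1802 to 4049 counts against 5 to 13 (8.34, SE 0.72, adjusted p = 1.3e-05). COL1A1 measured 313, 214 and 408 TPM against 60.6, 90.9 and 124 TPM (1.67, SE 0.33, adjusted p = 0.0054). COL5A3 measured 12.9, 12.8 and 11.6 TPM against 0.94, 2.38 and 2.40 TPM (2.59, SE 0.33, adjusted p = 0.00022). For each of these 3 genes every shNRP1#5 sample was above every other SUM159PT sample of any group, and the calls remained in every fit that left out 1 library. COL3A1 measured 188, 60.5 and 88.7 TPM against 2.05, 24.3 and 19.1 TPM, without overlap, and did not pass (2.75, SE 0.86, adjusted p = 0.078). COL17A1 fell by 1.53 (SE 0.40, adjusted p = 0.032), a call that remained in 2 of 6 such fits.

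HS578T is the line with abundant COL1A2, so the share of its RNA is given beside these values. In the 3 shNRP1#5 samples of SUM159PT the HS578T marker share was 0.0983 to 0.236%. At the HS578T shNT level that share would bring 0.688 to 1.65 TPM of COL1A2, against the 18.6 to 41.3 TPM measured. THY1, a fibroblast marker at 896 TPM in HS578T shNT, was at or below 0.22 TPM in these samples. The summed fibroblast markers ranged from 25.9 to 71.7 TPM with shNRP1#5 and from 28.3 to 59.8 TPM in shNT. The MDA-MB-231 share reached 1.06% in 1 of the 3 samples, and CLDN4, a gene that line expresses, was at 14.3 to 27.9 TPM with shNRP1#5 against 0.72 to 0.99 TPM in shNT. The part of either in the collagen result was not tested, and the MDA-MB-231 non-targeting groups held less COL1A2 than these samples did.

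**Figure D3:**
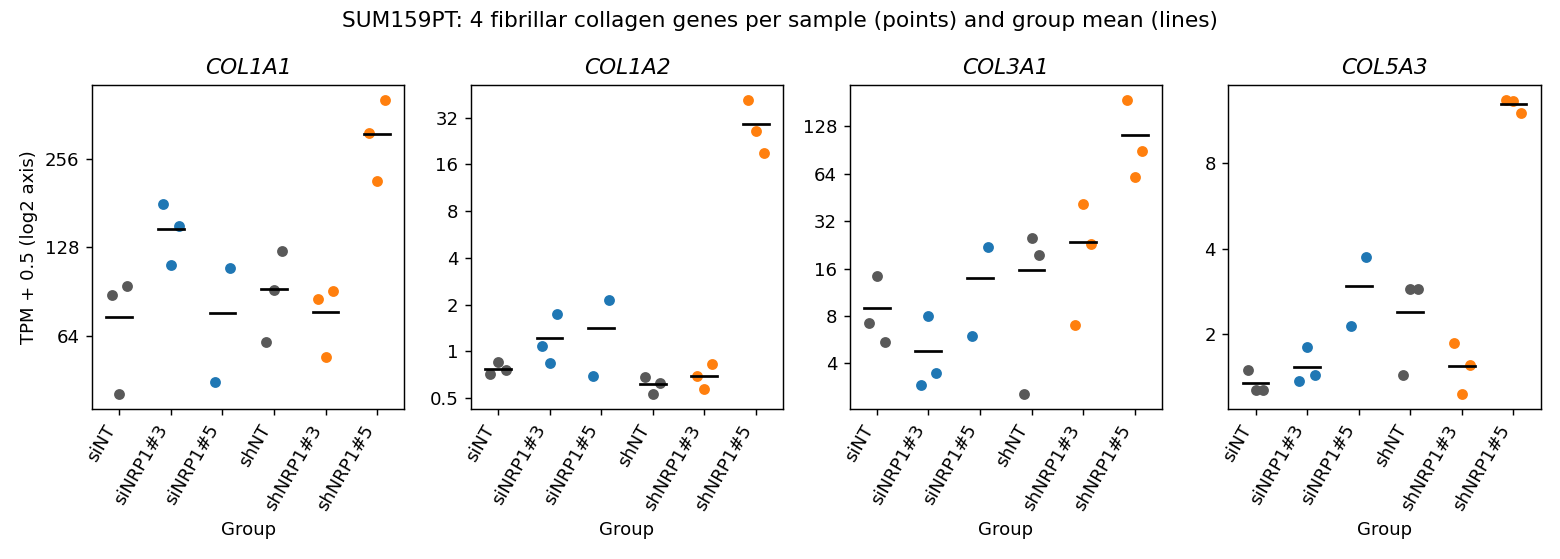
TPM + 0.5 (log2 axis) of COL1A1, COL1A2, COL3A1 and COL5A3 in each SUM159PT sample (points) of the 6 groups, with group means (lines); siNRP1#5 has 2 samples. The 3 shNRP1#5 samples sit above all other samples in each panel, at 18.6 to 41.3 TPM for COL1A2 where shNT is at or below 0.18 TPM.

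In MDA-MB-231, COL5A1 fell with 3 of the 4 reagents, and COL4A2 with both siRNAs. With siNRP1#3, 10 of 25 collagen genes passed (1 higher, 9 lower), beside 25.7% of all genes (11.4% higher and 14.3% lower). COL5A1 measured 8.11, 9.64 and 10.7 TPM against 43.1, 49.3 and 43.5 TPM in siNT (-2.31, SE 0.16, adjusted p = 1.7e-08). COL18A1 measured 10.9, 10.2 and 12.6 TPM against 29.9, 32.8 and 34.6 TPM (-1.44, SE 0.17, adjusted p = 9.3e-06). Neither gene had overlapping samples. The head-to-head pair COL4A1 and COL4A2 fell by 0.88 (SE 0.16) and 0.79 (SE 0.15), with COL4A2 at 44.5, 43.4 and 53.7 TPM against 82.4, 92.3 and 98.4 TPM. COL9A3 fell by 1.68, COL4A5 by 1.23, COL13A1 by 0.70, COL27A1 by 0.53 and COL12A1 by 0.50. COL4A6 was called higher (1.43, SE 0.35, adjusted p = 0.0054) on 13 to 19 counts per sample against 5 to 7, at 0.10 to 0.15 TPM with samples overlapping in TPM, and the call was lost when reads like those of both other lines were subtracted. The siNRP1#3 call of COL4A6 was in the opposite direction in SUM159PT, but the difference between the lines did not pass (log2 difference -2.27, SE 0.71, adjusted p = 0.175, with 0.384% of all genes called in that comparison).

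With siNRP1#5, 10 of 25 collagen genes passed in MDA-MB-231 (3 higher, 7 lower), beside 29.4% of all genes (14.4% higher and 14.9% lower). COL4A2 measured 36.7, 26.4 and 34.7 TPM, all below the siNT samples (-1.28, SE 0.15, adjusted p = 4.5e-06). Its partner COL4A1 measured 23.3, 14.7 and 19.3 TPM against 27.9, 29.0 and 31.7 TPM and did not pass (-0.36, SE 0.16, adjusted p = 0.097). COL5A1 measured 24.1, 19.2 and 22.4 TPM (-0.89, SE 0.15, adjusted p = 0.00022). COL9A2 measured 3.82, 2.68 and 4.81 TPM against 10.1, 12.0 and 13.8 TPM (-1.44, SE 0.20, adjusted p = 1.9e-05), and COL11A2, a cartilage fibrillar chain below 1 TPM here, fell by 1.26 (SE 0.29). COL7A1 fell by 0.89, COL13A1 by 0.69 and COL12A1 by 0.54. COL8A1 (0.82, SE 0.20), COL6A1 (0.76, SE 0.19) and COL17A1 (0.64, SE 0.17) rose. COL6A1 measured 40.5, 35.7 and 42.0 TPM against 24.7, 27.7 and 30.8 TPM, while COL6A2 overlapped its controls and did not pass.

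With shNRP1#3, 4 of 25 passed in MDA-MB-231 (3 higher, 1 lower), beside 3.65% of all genes (1.46% higher and 2.19% lower). COL7A1 measured 57.6, 45.3 and 47.9 TPM against 29.4, 14.5 and 23.3 TPM in shNT, without overlap (1.18, SE 0.27, adjusted p = 0.020), and kept its call in 3 of 6 fits that left out 1 library. COL4A6 (1.57, SE 0.29) was at 0.22 to 0.26 TPM against at most 0.10 TPM. COL8A2 fell by 1.88 (SE 0.51), at or below 0.15 TPM, a call lost without any 1 of the 6 libraries. COL5A2 was called higher (3.02, SE 0.62, adjusted p = 0.011) at 0.18, 0.31 and 1.67 TPM against at most 0.09 TPM, and the call was lost without shNRP1#3 replicate 3, shNT replicate 2 or shNT replicate 3. In shNRP1#3 replicate 3 COL1A1 measured 54.0 TPM, COL1A2 51.8 TPM and COL6A3 21.3 TPM, where the other 2 shNRP1#3 samples were at or below 5.80, 0.52 and 2.59 TPM. At the shNT levels of the other lines, their RNA shares in replicate 3 would bring 14.4 TPM of COL1A2. HS578T held 699 TPM of COL1A2 in shNT and 2341 TPM in siNT, so the estimate depends on the control that stands for the donor. After subtraction of such reads, also at the shNT levels, 2 of the 4 calls were left. COL7A1 and COL8A2 were those 2. Without replicate 3 edgeR called 2 collagen genes, and without shNT replicate 2 or shNT replicate 3 it called 1.

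With shNRP1#5, 10 of 25 passed in MDA-MB-231 (1 higher, 9 lower), beside 20.7% of all genes (8.79% higher and 11.9% lower). Without shNRP1#5 replicate 3, shNT replicate 2 or shNT replicate 3 the count was 6. Over all 29 collagen genes tested, also those low in the controls, 4 were higher and 9 lower. COL5A1 measured 19.0, 20.3 and 15.2 TPM against 47.0, 36.3 and 48.0 TPM in shNT (-1.25, SE 0.15, adjusted p = 3.2e-05). COL8A1 measured 26.5, 33.8 and 30.7 TPM against 60.9, 57.4 and 49.4 TPM (-1.20, SE 0.20, adjusted p = 0.00039). Both genes were lower in all 3 knockdown samples than in all controls. COL8A2 fell by 1.75, COL9A2 by 1.00, COL9A3 by 0.96, COL4A5 by 0.88, COL18A1 by 0.81, COL12A1 by 0.59 and COL6A1 by 0.55. COL27A1, a fibrillar collagen of cartilage, rose by 0.62 (SE 0.16). COL13A1, the highest collagen gene of this line, measured 112, 90.7 and 111 TPM against 141, 173 and 153 TPM and did not pass (-0.51, SE 0.19, adjusted p = 0.064).

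**Figure D4:**
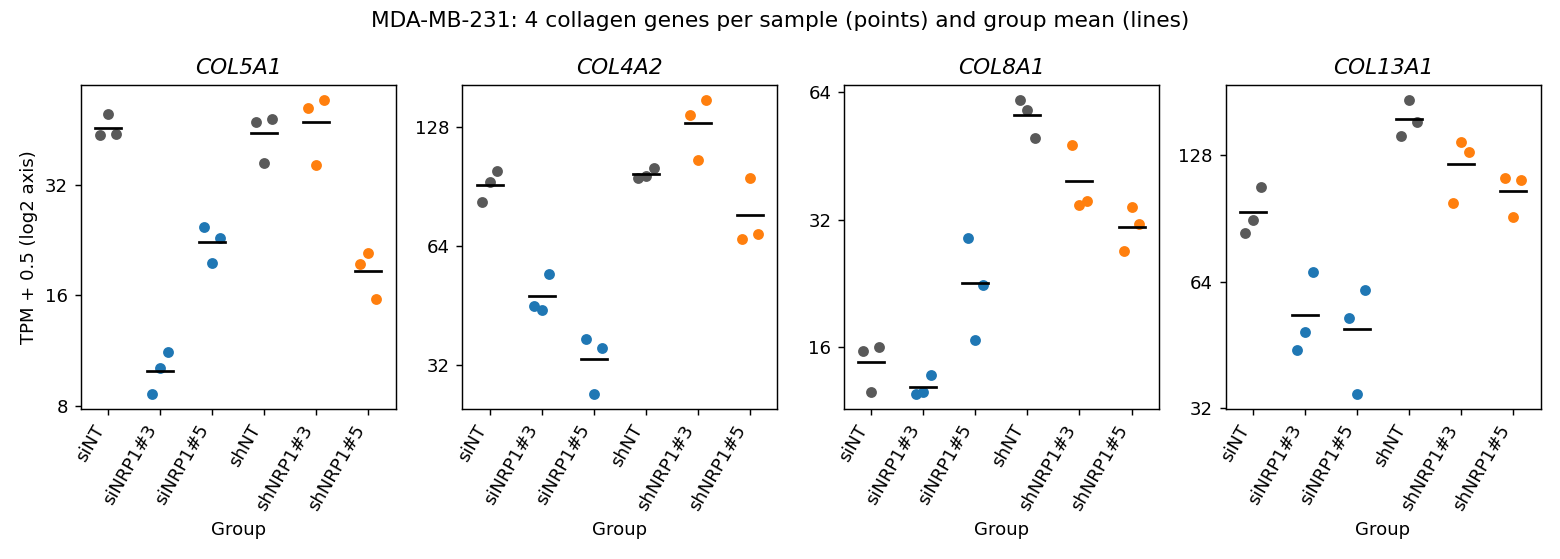
TPM + 0.5 (log2 axis) of COL5A1, COL4A2, COL8A1 and COL13A1 in each MDA-MB-231 sample (points) of the 6 groups of 3 samples, with group means (lines). COL5A1 is below its controls with siNRP1#3, siNRP1#5 and shNRP1#5 and not with shNRP1#3, and COL8A1 is at most 15.5 TPM in siNT and at least 49.4 TPM in shNT.

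In HS578T, the line with the most collagen RNA, few collagen genes passed. With siNRP1#3, edgeR called 0 of 28, beside 4.65% of all genes (2.31% higher and 2.34% lower). At an unadjusted p below 0.05 there were 7, while DESeq2 called 2 and limma 0, and edgeR called 1 without siNRP1#3 replicate 2. COL1A1 measured 2696, 2063 and 3308 TPM against 1917, 1353 and 1802 TPM in siNT (log2 fold change 0.48, SE 0.32, adjusted p = 0.43). COL4A1 was the nearest to the threshold (1.05, SE 0.32, adjusted p = 0.073). With siNRP1#5, 3 of 28 passed, all lower, beside 18.7% of all genes (10.1% higher and 8.53% lower). COL23A1 measured 11.5, 5.88 and 3.41 TPM against 31.6, 19.4 and 18.3 TPM (-1.67, SE 0.38, adjusted p = 0.0066). COL15A1, a multiplexin, measured 3.13, 2.94 and 2.12 TPM against 12.8, 6.19 and 8.33 TPM (-1.67, SE 0.43, adjusted p = 0.014), and COL8A2 measured 0.43, 0.55 and 0.51 TPM against 1.25, 1.40 and 1.81 TPM (-1.52, SE 0.39, adjusted p = 0.012). None of the 3 genes had overlapping samples. After subtraction of the MDA-MB-231 reads, by the stricter choice of marker genes, the log2 fold changes were -1.30 for COL23A1 (adjusted p = 0.0386), -1.24 for COL8A2 (adjusted p = 0.0491) and -1.34 for COL15A1, which then missed the threshold (adjusted p = 0.0512). After subtraction of the reads of both other lines, by the wider choice, COL23A1 passed (-1.23, adjusted p = 0.0476) and COL8A2 (-1.19, adjusted p = 0.0581) and COL15A1 (-1.33, adjusted p = 0.0518) did not. These settings differ in the MDA-MB-231 share removed as well as in the SUM159PT reads, and the part of each was not tested. Without siNRP1#5 replicate 2, which has the highest SUM159PT share, 1 collagen gene was called. The type I chains, with 1815, 1553 and 1329 TPM of COL1A2, did not pass with siNRP1#5.

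With shNRP1#3, which has 2 HS578T samples, edgeR called 0 of 28, beside 0.0356% of all genes (0.00509% higher and 0.0305% lower). At an unadjusted p below 0.05 there were 5, while DESeq2 called 1 and limma 0. With shNRP1#5, 1 of 28 passed, beside 0.946% of all genes (0.275% higher and 0.671% lower), and when the replicate number was added as a block 2 passed. The 1 gene was COL11A2, at 0.17, 0.35 and 0.18 TPM against 1.79, 0.64 and 0.45 TPM in shNT (-2.52, SE 0.58, adjusted p = 0.047), and its call was kept in 1 of 6 fits that left out 1 library and lost when MDA-MB-231 reads were subtracted (adjusted p = 0.0779). The count was 0 without shNRP1#5 replicate 2, shNRP1#5 replicate 3, shNT replicate 1 or shNT replicate 2, and 2 without shNRP1#5 replicate 1. COL1A2 measured 1002, 1032 and 440 TPM with shNRP1#5 against 825, 579 and 694 TPM.

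Across the 12 comparisons of a knockdown group with its control, 25 of the 28 collagen genes were called in at least 1, 21 in at least 2, 8 in at least 3 and 4 in 4. The same tally was not made over all genes, of which 0.0356% to 29.4% were called in a single comparison. These counts can thus not be read as a trait of the collagen genes. The 28 were kept by their level in these controls, which leaves out genes low there that rose. Over all collagen genes tested, those higher and lower with siNRP1#3, siNRP1#5, shNRP1#3 and shNRP1#5 were as follows. In SUM159PT (31 tested) they were 1 and 6, 2 and 10, 0 and 0, and 5 and 1. In MDA-MB-231 (29 tested) they were 1 and 10, 3 and 8, 3 and 1, and 4 and 9. In HS578T (35 tested) they were 0 and 0, 0 and 4, 0 and 0, and 0 and 1. The comparisons of 1 cell line with the same control share the control samples. COL5A1, COL18A1 and COL4A5 were each lower in 4 comparisons and higher in 0. For COL5A1 these were SUM159PT siNRP1#5 and MDA-MB-231 siNRP1#3, siNRP1#5 and shNRP1#5. For COL18A1 they were both SUM159PT siRNAs and MDA-MB-231 siNRP1#3 and shNRP1#5, and the same 4 comparisons held COL4A5. COL4A2, COL12A1 and COL8A2 were each lower in 3, COL13A1 was lower in 2, and COL1A2 was higher in 2. COL4A6 was called in 4 comparisons, lower in both siRNA groups of SUM159PT and higher in MDA-MB-231 siNRP1#3 and shNRP1#3. COL3A1, COL6A2 and COL14A1 were called in none of the comparisons they were tested in. The median log2 fold change over the tested genes of the kept 28 was -0.80 and -0.79 in SUM159PT siNRP1#3 and siNRP1#5. This median was -0.43 and -0.65 in the same siRNA groups of MDA-MB-231 and -0.55 in MDA-MB-231 shNRP1#5. It was 0.25 in SUM159PT shNRP1#3, 0.59 in SUM159PT shNRP1#5 and 0.37 in MDA-MB-231 shNRP1#3. In HS578T it was -0.11 with siNRP1#3, -0.35 with siNRP1#5, -0.35 with shNRP1#3 and 0.18 with shNRP1#5. The median over all genes was between -0.01 and 0.03 in the 12 comparisons.

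**Figure D5:**
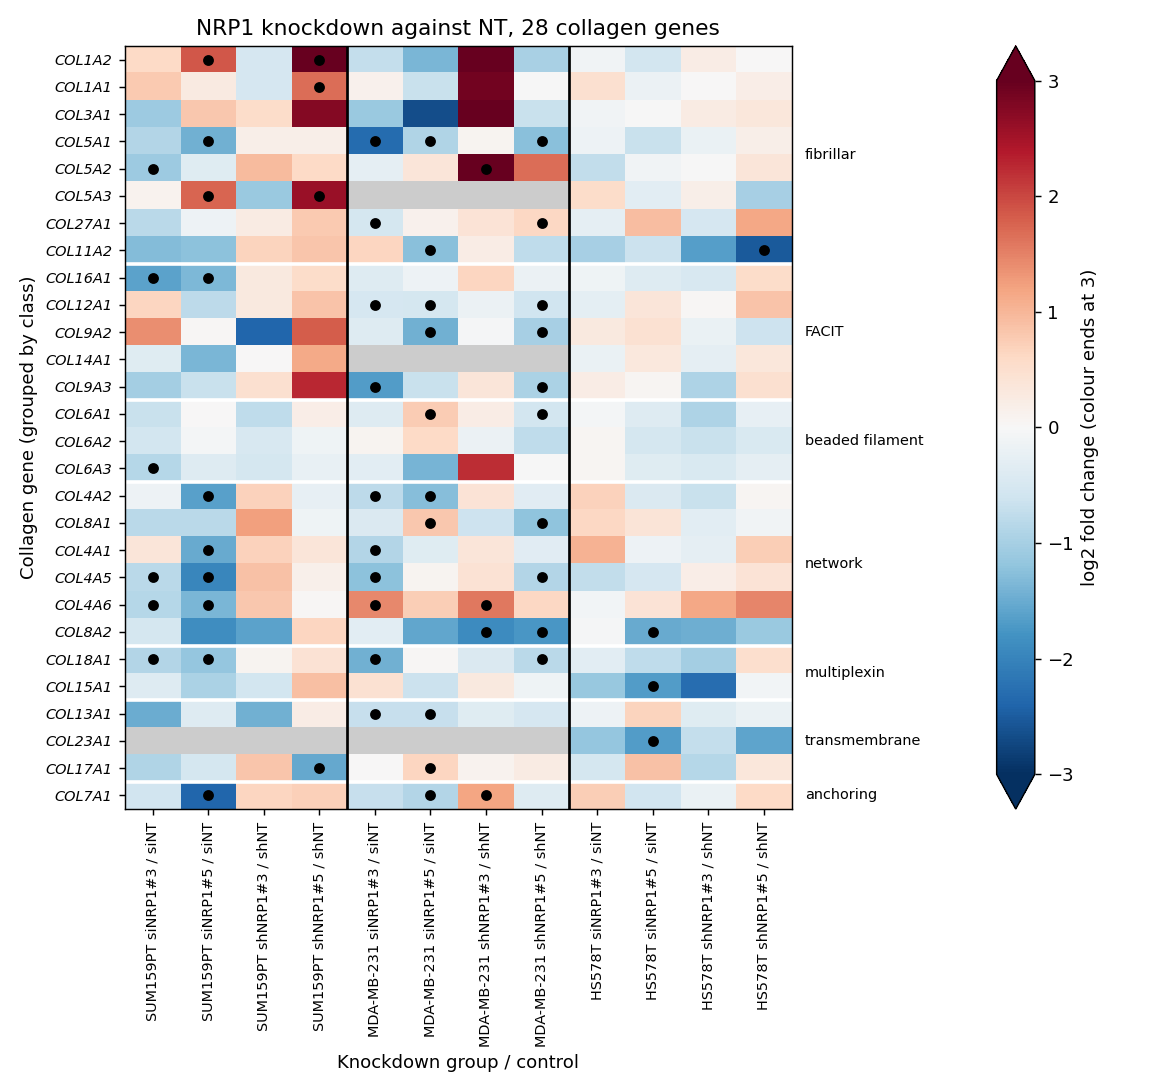
Log2 fold change of the 28 collagen genes (rows, grouped by class) in the 12 comparisons of a knockdown group with its NT control (columns). Blue is lower and red higher, the colour ends at 3, black dots mark an edgeR adjusted p below 0.05, and grey cells were not tested for low counts. COL5A1, COL18A1 and COL4A5 have blue dotted cells in 4 columns each, and dotted red cells stand out at COL1A1, COL1A2 and COL5A3 in SUM159PT shNRP1#5.

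The siRNA and the shRNA with the same targeting sequence, siNRP1#5 and shNRP1#5, were compared by a test of the difference of the 2 effects within each line. In SUM159PT it passed for 8 of 27 collagen genes, all lower with the siRNA than with the shRNA, beside 2.51% of all genes (0.962% higher and 1.54% lower). The count was 2 without siNT replicate 1, shNRP1#5 replicate 1 or 2, or shNT replicate 1 or 3, was 3 without siNRP1#5 replicate 2 or shNT replicate 2, and was 5 without siNT replicate 3. COL4A5 fell by 1.95 with siNRP1#5 and changed by 0.15 (SE 0.21) with shNRP1#5, which did not pass, and the difference was -2.10 (SE 0.33, adjusted p = 0.0062). In MDA-MB-231 it passed for 5 of 25 (4 higher, 1 lower), beside 23.7% of all genes (12.2% higher and 11.4% lower), so the collagen genes stood at or below the rate of all genes, and without shNRP1#5 replicate 3 it passed for 3. There COL8A1 rose by 0.82 with the siRNA and fell by 1.20 with the shRNA (difference 2.02, SE 0.28, adjusted p = 4.2e-05), and COL6A1 rose by 0.76 and fell by 0.55 (difference 1.32, SE 0.27, adjusted p = 0.0015). COL5A1 was lower with both reagents in MDA-MB-231 and is not among the 5. In HS578T edgeR called 0 of 28, beside 0.854% of all genes (0.692% higher and 0.163% lower). At an unadjusted p below 0.05 there were 5, while DESeq2 called 0 and limma 0. NRP1 was at 2.45 CPM with siNRP1#5 and at 84.9 CPM with shNRP1#5 in MDA-MB-231, so the depth of knockdown differed as well, and its part in the differences was not tested.

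Collagen chains need hydroxylases, chaperones, glycosyltransferases, propeptide-cleaving enzymes and lysyl oxidases to become fibrils. Of 31 such genes, 30 were tested in each line. With siNRP1#3, 7 were lower and 0 higher in SUM159PT, beside 8.66% of all genes, among them SERPINH1 (the collagen chaperone HSP47, log2 fold change -1.30, adjusted p = 0.0043) and P3H4 (-1.49). In MDA-MB-231 siNRP1#3, 8 of 30 were lower and 0 higher, beside 25.7% of all genes (11.4% higher and 14.3% lower). Among the 8 were ADAMTS3 (-1.60), BMP1 (-1.37) and LOXL4 (-1.34). With siNRP1#5, 4 were lower and 1 higher in SUM159PT, beside 17.9% of all genes, and 2 were lower and 3 higher in MDA-MB-231, fewer than the 29.4% of all genes. In both lines the lysyl hydroxylase PLOD2 fell (-1.63 and -0.73) and SERPINH1 rose (1.27 and 1.18). With shNRP1#5, 7 were higher and 0 lower in SUM159PT, the group in which the type I chains rose, beside 5.94% of all genes, among them COLGALT2 (2.84), the lysyl oxidase LOX (2.40) and SERPINH1 (1.27). In MDA-MB-231 shNRP1#5, 11 were lower and 2 higher, beside 20.7% of all genes, with ADAMTS14 (-2.84), LOXL4 (-2.01) and BMP1 (-1.20) lower. With shNRP1#3, 2 were lower and 1 higher in SUM159PT, beside 1.4% of all genes, and 1 was higher in MDA-MB-231 (PCOLCE2, 0.47), beside 3.65%. In HS578T 0 of 30 passed with siNRP1#3, shNRP1#3 or shNRP1#5, beside 4.65%, 0.0356% and 0.946% of all genes. In that line 5 of 30 passed with siNRP1#5 (2 higher, 3 lower), beside 18.7% of all genes. The 2 that were higher there were LOXL4 (4.12) and ADAMTS3 (2.45), in samples with 13.3 to 24.8% of RNA like that of MDA-MB-231, and the part of that RNA was not tested.

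The collagen receptors on the cell were described by 8 genes, the integrin chains ITGA1, ITGA2, ITGA10, ITGA11 and ITGB1, the discoidin domain receptors DDR1 and DDR2, and the uptake receptor MRC2. ITGA2 fell in SUM159PT with siNRP1#3 (-1.55) and siNRP1#5 (-1.94) and in MDA-MB-231 with siNRP1#3 (-0.71), and rose in MDA-MB-231 with siNRP1#5 (0.55). In SUM159PT 2 of 8 were lower with siNRP1#3, beside 8.66% of all genes called, and 4 of 8 with siNRP1#5, beside 17.9%. In MDA-MB-231 3 of 8 were lower with siNRP1#3, beside 25.7% of all genes, and 4 of 8 with shNRP1#5 (ITGA1, ITGA10, DDR1 and MRC2), beside 20.7%. With 8 genes these shares rest on few genes. In HS578T ITGA10 fell with siNRP1#3 (-1.24) and siNRP1#5 (-2.16), beside 4.65% and 18.7% of all genes. ITGA11 (-1.10) and MRC2 (-1.23) fell with siNRP1#5 too. The HS578T siNRP1#5 samples carried 13.3 to 24.8% of RNA like that of MDA-MB-231. In siNT, MDA-MB-231 had less than HS578T of ITGA10 (0.18 against 6.63 TPM), ITGA11 (0.32 against 98.2 TPM) and MRC2 (24.8 against 61.7 TPM). The part of that RNA in these falls was not tested.

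Of the 44 genes, 16 had a mean below 1 TPM in every non-targeting group. Those that edgeR could test and called in a knockdown comparison stayed low. In SUM159PT shNRP1#5, COL11A1 was at 0.72 TPM against 0.02 TPM in shNT and COL21A1 at 0.763 TPM against 0.0567 TPM. In MDA-MB-231 siNRP1#5 the basement membrane chain COL4A4 was at 0.0433 TPM against 0.287 TPM in siNT. COL4A4 was also called lower in MDA-MB-231 siNRP1#3 and SUM159PT siNRP1#5, and COL22A1 in HS578T siNRP1#5. COL28A1 was called higher in SUM159PT siNRP1#3 and lower in SUM159PT siNRP1#5. In MDA-MB-231 shNRP1#5, COL11A1, COL19A1 and COL20A1 were called higher, at 0.28, 0.15 and 0.06 TPM.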

How the data were processed

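RNA from 52 samples was sequenced, and the authors made the values as follows. Per the labels and the study's methods, reads were checked with FastQC 0.11.9, trimmed with Trim Galore 0.6.5, aligned to GRCh38 with STAR 2.7.2b and quantified per gene with RSEM 1.3.3, stranded, each sample separately. The deposited expected counts are not scaled for depth, and the deposited TPM values are scaled for transcript length and to the same sum in each sample. Expected counts totalled 25310443 to 72003442 per sample (median 44804505). Pairs of replicates differed by more than sampling noise (lowest chi-square per degree of freedom 11.0).

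From these files the expected counts were rounded and tested in R 4.3.3 with the quasi-likelihood test of edgeR 4.0.16 (filterByExpr, TMM, robust dispersion), with 1 model per cell line over its 6 groups and Benjamini-Hochberg adjustment over all genes tested (20067 for SUM159PT, 18800 for MDA-MB-231, 19661 for HS578T; threshold 0.05). Cell lines were compared over the 18 non-targeting samples (20686 genes), and the difference between lines over all 52 samples (23416 genes). The SE printed beside a log2 fold change or difference is its absolute value divided by the square root of the F statistic of that test. It is derived from the test and is not a standard error given by the fit. The script was tested on simulated counts. TPM levels and sums carry no test. The alternatives were DESeq2 1.42.0, limma 3.58.1 on log2(TPM + 0.5), no low-count filter, the replicate number as a block, only the groups compared, each sample left out, and subtraction of reads like those of another line. The share of such reads is the median, over genes at or below 0.5 CPM in the line and at or above 20 CPM in the donor line, of the percent of the donor level. The wider choice of marker genes set these limits on the mean of the non-targeting samples, and the stricter choice on every such sample. Subtraction of MDA-MB-231 reads alone used the stricter choice, and subtraction of both other lines the wider one. The level a share would bring, and the reads subtracted, used the donor line's siNT level for siRNA samples and its shNT level for shRNA samples. The use of group means for these limits, the subtraction of both other lines, the leave-one-out ratios of sums and the alternatives for the difference between lines were chosen after seeing the data.

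The collagen genes and all lists were chosen with earlier results of these data known. Named genes are all 28 by level and, with statistics, those called in 1 direction in the most comparisons (up to 8), the up to 4 called genes of each knockdown comparison and up to 5 of each pair of lines with the largest change, and genes called in opposite directions in 2 lines. Same-numbered replicates deviated together (every pair's correlation over 0.1, 3 pairs) in 6 of 15 comparisons: siNRP1#3 and shNRP1#3 in SUM159PT, siNRP1#5, shNRP1#3 and shNT against siNT in MDA-MB-231, and shNRP1#5 in HS578T. The correlations ranged from -0.51 to 0.78. Transcript-level files were not used here.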

Additional observations from a re-analysis of the deposited data

Results flagged for a closer look

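For 13 collagen gene results the siNRP1#5 effect and the shNRP1#5 effect differed within a cell line by the edgeR test of the difference itself, in log2 units, siRNA effect minus shRNA effect. In SUM159PT, where siNRP1#5 has 2 samples, COL1A2 differed by -6.48 (adjusted p = 0.0041) and COL4A5 by -2.10 (adjusted p = 0.0062), and both passed in all 11 fits that left out 1 library. In the SUM159PT siNT, siNRP1#5 and shNT samples the estimated COL1A2 of the other lines was above what was measured there (2.30 and 5.43 TPM against 0.20 and 1.64 TPM with siNRP1#5). A fit after subtraction of such reads was run, but for this reason it cannot decide the COL1A2 difference. COL7A1 differed by -3.11, COL14A1 by -2.50, COL16A1 by -1.90, COL5A1 by -1.61, COL18A1 by -1.61 and COL4A6 by -1.40, and each of these passed in 2 to 4 of the 11 fits. In MDA-MB-231, COL8A1 differed by 2.02 (adjusted p = 4.2e-05), COL6A1 by 1.32 and COL4A2 by -0.94, and all 3 passed in all 12 fits that left out 1 library. COL4A5 differed by 0.97 and COL18A1 by 0.85, which passed in 7 and 10 of 12. The siRNA and shRNA arms also differed in selection and harvest time, and these cannot be told apart.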

How the results depend on the processing

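Of 168 gene results that passed, 87 kept direction and threshold in every fit run and 115 in every fit that left out 1 library. The 168 include 70 results of 1 cell line against another, for genes kept by their level in those same samples. How many of the other results held was not counted apart, so these totals cannot be read as the stability of the knockdown results. The number of collagen genes called moved by over 1.5 times as follows. With DESeq2 it was 10 for SUM159PT siNRP1#3 (6 in the reported test), 7 for SUM159PT shNRP1#3 (0), 8 for SUM159PT shNRP1#5 (4), 8 for MDA-MB-231 shNRP1#3 (4), 2 for HS578T siNRP1#3 (0), 1 for HS578T shNRP1#3 (0) and 3 for HS578T shNRP1#5 (1). With no low-count filter it was, for siNRP1#3, shNRP1#3 and shNRP1#5 in SUM159PT, 13, 5 and 9, for siNRP1#5 and shNRP1#3 in MDA-MB-231 17 and 13, for siNRP1#3, shNRP1#3 and shNRP1#5 in HS578T 3, 1 and 6, for shNT against siNT 14 in MDA-MB-231 and 17 in HS578T, and for the siRNA effect minus the shRNA effect 15 (SUM159PT), 8 (MDA-MB-231) and 2 (HS578T). That setting also took the COL4A6 difference between lines past the threshold (-2.29). With limma it was 3 and 1 for SUM159PT siNRP1#3 and shNRP1#3, 2 for MDA-MB-231 shNRP1#3, and for shNT against siNT 5 in SUM159PT and 14 in HS578T. With only the 2 groups fitted it was 3, 0 and 3 for SUM159PT siNRP1#3, siNRP1#5 and shNRP1#3, 6 for MDA-MB-231 siNRP1#5, and 1 and 0 for HS578T siNRP1#3 and shNRP1#5. With the replicate block it was 10 for SUM159PT siNRP1#3, 3 for SUM159PT shNRP1#3 and 2 for HS578T shNRP1#5, where same-numbered samples deviated together. It was 1 for HS578T siNRP1#3, where not every such pair did. No label says that equal numbers pair the samples. The block gave each number 1 effect over all groups fitted, siRNA and shRNA together. In HS578T, shNT and siNT samples of equal number correlated at -0.23 to 0.09, so there the block does not follow a shared deviation. The block moved no other count of collagen genes called by over 1.5 times. Subtraction of MDA-MB-231 reads left 0 for HS578T shNRP1#5, and subtraction of the reads of both other lines left 0 there, 2 for MDA-MB-231 shNRP1#3 and 1 for the HS578T siRNA effect minus the shRNA effect. COL8A1 in SUM159PT against MDA-MB-231 reversed with shNT alone (-0.13, adjusted p = 0.71). The cause of these moves was not tested. Here and above, counts by an alternative setting or at an unadjusted p come without the share of all genes under it. They show how the count depends on the setting and cannot be read as a result about the collagen genes.

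When 1 library was left out, the counts ran, for siNRP1#3, siNRP1#5, shNRP1#3 and shNRP1#5 in that order, from 2 to 4, 6 to 10, 0 to 1 and 3 to 6 in SUM159PT, from 7 to 10, 7 to 10, 1 to 5 and 6 to 10 in MDA-MB-231, and from 0 to 1, 1 to 3, 0 to 0 and 0 to 2 in HS578T. For shNT against siNT they ran from 3 to 8, 4 to 9 and 6 to 10 in the same order of lines, and for the siRNA effect minus the shRNA effect from 2 to 10, 3 to 6 and 0 to 0. Between lines they ran from 20 to 26. Depth limits the genes near 0, such as COL4A6 in MDA-MB-231 siNRP1#3, whose call rests on 13 to 19 counts per sample.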
